A study of Mus musculus with 12 samples.

Results

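A group of 3 genes that stood among the strongest increases after YAP overexpression in mouse embryonic stem cells (ESCs) were followed through YAP gain and YAP loss: Aox3, 3830417A13Rik and Agpat9, which is now named Gpat3. They are 3 of 24480 genes in the deposited tables, and all 3 passed the filter on low counts in both experiments. They were picked by name from the overexpression comparison. Among the 223 genes that were called higher there, had a mean of at least 50 expected counts and had no overlap between groups, they held places 2, 4 and 5 by fold change. The overexpression values of the 3 genes chose them, so they are given below as a description without a test. Knockdown values are given with the adjusted p of the fit over all genes. The knockdown pattern of the 3 genes was also known when they were picked, so these p-values are not independent of the choice.

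The cells were E14Tg2a, a feeder-independent mouse ESC line kept undifferentiated in serum with leukemia inhibitory factor, and all groups were transfected transiently with Lipofectamine. YAP KD cells received a mix of Stealth siRNAs against Yap1, and CTR KD cells a scrambled siRNA. YAP OE cells received a plasmid with mouse YAP under the CAG promoter, a strong promoter active in most cell types. CTR OE cells received a control plasmid, which encodes GFP according to the labels and is called an empty vector in the paper. Each of the 4 groups had 3 libraries from independent experiments, 12 in all, and no group was shared between the 2 experiments. Levels are CPM, the counts of a gene relative to the library total, after TMM scaling over all 12 libraries, as mean ± SD of 3 libraries, and a gene was called when its adjusted p in edgeR's quasi-likelihood test was under 0.05.

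YAP is a transcriptional coactivator that is held in the cytoplasm when the Hippo kinases phosphorylate it. In the nucleus it acts on genes mainly through TEAD factors, and in many cells AP-1 factors occupy the same regulatory regions. The 3 genes belong to unrelated families. Aox3 encodes an aldehyde oxidase, a molybdenum- and flavin-containing enzyme that oxidises aldehydes, retinaldehyde among them, and nitrogen heterocycles. Mouse aldehyde oxidases form a cluster of neighbouring genes and are best known from liver, skin and the olfactory mucosa. Agpat9 encodes a glycerol-3-phosphate acyltransferase of the endoplasmic reticulum, which attaches the first fatty acid in the synthesis of phospholipids and triacylglycerol and is best known from fat cells. 3830417A13Rik carries only a clone name. Its translated coding sequence is closest to those of MAGE genes, a family with many X-linked genes, whose A and B branches are active mostly in the germ line and in tumours.

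Aox3 lies on chromosome 1 from 58113135 to 58202221 of GRCm38.p6, the mm10 build. 3830417A13Rik lies on the X chromosome from 64173548 to 64178779, and Agpat9 on chromosome 5 from 100845665 to 100899102. The 250 bases upstream of each RefSeq transcript start are shown on the plus strand, the coding strand of all 3, because a shared response invites a look for shared motifs. The window of Agpat9 lies inside the annotated span of that gene, so its values do not cover the bases before position 100845665. Capitals mark a match to the AP-1 motif TGANTCA.
Aox3, chr1:58112886-58113135: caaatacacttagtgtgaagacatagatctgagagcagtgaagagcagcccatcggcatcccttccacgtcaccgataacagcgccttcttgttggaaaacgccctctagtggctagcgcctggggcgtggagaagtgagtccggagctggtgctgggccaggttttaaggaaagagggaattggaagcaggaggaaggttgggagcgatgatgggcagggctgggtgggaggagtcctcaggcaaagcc
3830417A13Rik, chrX:64173298-64173547: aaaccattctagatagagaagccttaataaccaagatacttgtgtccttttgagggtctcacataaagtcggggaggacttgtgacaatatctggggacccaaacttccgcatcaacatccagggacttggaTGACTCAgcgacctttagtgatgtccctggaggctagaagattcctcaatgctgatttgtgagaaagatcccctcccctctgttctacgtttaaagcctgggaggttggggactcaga
Agpat9, chr5:100845979-100846228: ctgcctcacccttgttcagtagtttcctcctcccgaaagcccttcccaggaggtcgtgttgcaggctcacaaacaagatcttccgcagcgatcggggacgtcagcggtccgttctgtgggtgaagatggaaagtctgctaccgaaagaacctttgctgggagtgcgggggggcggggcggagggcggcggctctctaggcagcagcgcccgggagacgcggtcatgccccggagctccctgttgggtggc
The windows were searched on both strands for TGANTCA and for GGAATG, the core of the TEAD motif. TGACTCA stood at bases -118 to -112 of 3830417A13Rik and nowhere in the windows of Aox3 and Agpat9. GGAATG was in none of the 3 windows. Over all 32851 RefSeq windows of the same length, 6.75% held the AP-1 motif and 12.6% the TEAD motif. The same AP-1 letters also stood in the windows of Aox1, at -220 to -214, and of Aox4, at -48 to -42, the genes on either side of Aox3, and not in that of Aox2, the last gene of the cluster. The window of Aox1 ends at 58029968, past the start of its annotated span at 58029809. GC content was 56.4% for Aox3, 47.2% for 3830417A13Rik and 64% for Agpat9, against a median of 52.4% over all windows.

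Libraries held 4.29e+07 to 5.72e+07 expected counts. Yap1 itself averaged 125 ± 9.74 CPM in CTR KD against 56.7 ± 1.79 in YAP KD (log2 fold change -1.14). It averaged 133 ± 2.10 CPM in CTR OE against 259 ± 16.8 in YAP OE (log2 fold change 0.97), a value that does not separate plasmid transcripts from endogenous ones. Summed CPM of 6 pluripotent cell markers was 3133 to 3453 over the 12 libraries, and 6 of 7 fibroblast markers were under 1 CPM in every library.

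**Figure D1:**
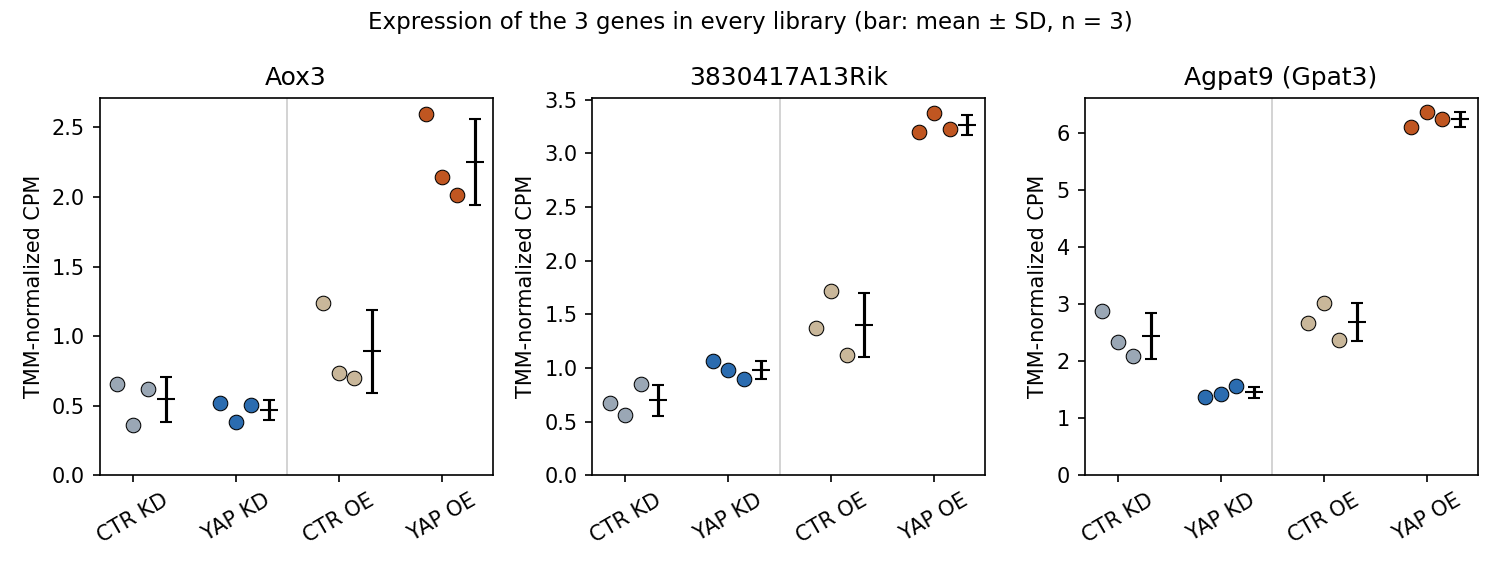
Expression of Aox3, 3830417A13Rik and Agpat9 in each of the 12 libraries, as TMM-normalized CPM on a linear axis from 0, with the mean ± SD of the 3 libraries of each group beside the points. YAP OE libraries stood above CTR OE libraries for all 3 genes, while YAP KD libraries lay within the control range for Aox3, above it for 3830417A13Rik and below it for Agpat9.

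Agpat9 moved in both experiments, in opposite directions. In the overexpression its level was 2.66, 3.03 and 2.37 CPM in the CTR OE libraries and 6.11, 6.36 and 6.24 in the YAP OE libraries. The log2 fold change was 1.22 (SE 0.0995), or 2.33-fold (95% interval 2.01 to 2.69). In the knockdown the CTR KD libraries had 2.89, 2.35 and 2.09 CPM and the YAP KD libraries 1.38, 1.43 and 1.57. Every YAP KD library lay below every CTR KD library, and 25.8% of the 14606 genes tested had no overlap between these groups in one direction or the other. The gene fell by 0.73 on the log2 scale (SE 0.151, 95% interval -1.07 to -0.40, adjusted p = 0.0226, edgeR), which left 60.2% of the control level. It was the only one of the 3 genes called on knockdown, where 2.78% of genes were called lower and 2.71% higher. Its fall was the 43rd largest among the 406 genes called lower.

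The knockdown call of Agpat9 was not firm. Its adjusted p ranged from 0.00353 to 0.184 over 9 other ways of processing the counts, and it passed the threshold in 6 of them. Without YAP KD replicate 1, 2 or 3 the log2 fold change was -0.69, -0.72 or -0.80 and the adjusted p 0.0836, 0.0939 or 0.0579. The direction was the same in all of these fits. In a bulk sample, fewer cells that express a gene and less RNA per cell cannot be told apart.

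Known YAP targets give a scale for these values. Ctgf and Amotl2, a secreted matrix protein and a junctional inhibitor of YAP, fell by 0.71 and 0.74 on the log2 scale in the knockdown (adjusted p = 0.000221 and 0.000169, edgeR), close to the -0.73 of Agpat9. In the overexpression they rose by 0.31 and 0.35, where Agpat9 had 1.22. Cyr61, a matrix protein related to Ctgf, had the other pattern: its log2 fold change was 1.00 with YAP OE and -0.032 with YAP KD, where it was not called (adjusted p = 0.933, edgeR).

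Aox3 stood higher in the YAP OE libraries and was not called in the knockdown. The CTR OE libraries had 1.24, 0.736 and 0.702 CPM, and the YAP OE libraries 2.60, 2.14 and 2.02. The groups did not overlap, and the first CTR OE library stood above the other two. The log2 fold change was 1.33 (SE 0.194), or 2.52-fold (95% interval 1.89 to 3.36), and the intervals of the 3 genes overlapped. In the knockdown the CTR KD libraries had 0.657, 0.359 and 0.621 CPM and the YAP KD libraries 0.522, 0.387 and 0.504. The YAP KD libraries all fell within the range of the controls. The log2 fold change was -0.19 (SE 0.276, adjusted p = 0.770, edgeR), with a 95% interval from -0.81 to 0.42. That interval is wide, because the 3 CTR KD libraries together held 79 counts of the gene and the 3 YAP KD libraries 66. It includes the -0.73 estimated for Agpat9, so a fall of that size in Aox3 is not excluded.

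3830417A13Rik rose with YAP gain and stood no lower with YAP loss. Its level was 1.37, 1.72 and 1.12 CPM in CTR OE and 3.20, 3.37 and 3.23 in YAP OE, without overlap. The log2 fold change was 1.22 (SE 0.140), or 2.34-fold (95% interval 1.90 to 2.87). In the knockdown the CTR KD libraries had 0.679, 0.568 and 0.849 CPM and the YAP KD libraries 1.07, 0.978 and 0.896. Here, too, all YAP KD libraries lay above all CTR KD libraries, the same side as in the overexpression. The log2 fold change of 0.49 (SE 0.198, 95% interval 0.046 to 0.93) did not pass the threshold in edgeR's quasi-likelihood test (adjusted p = 0.203). Before adjustment the value of that test was 0.0337. Such a separation was again that of 25.8% of the genes tested. The interval excludes a fall of the size seen for Agpat9.

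**Figure D2:**
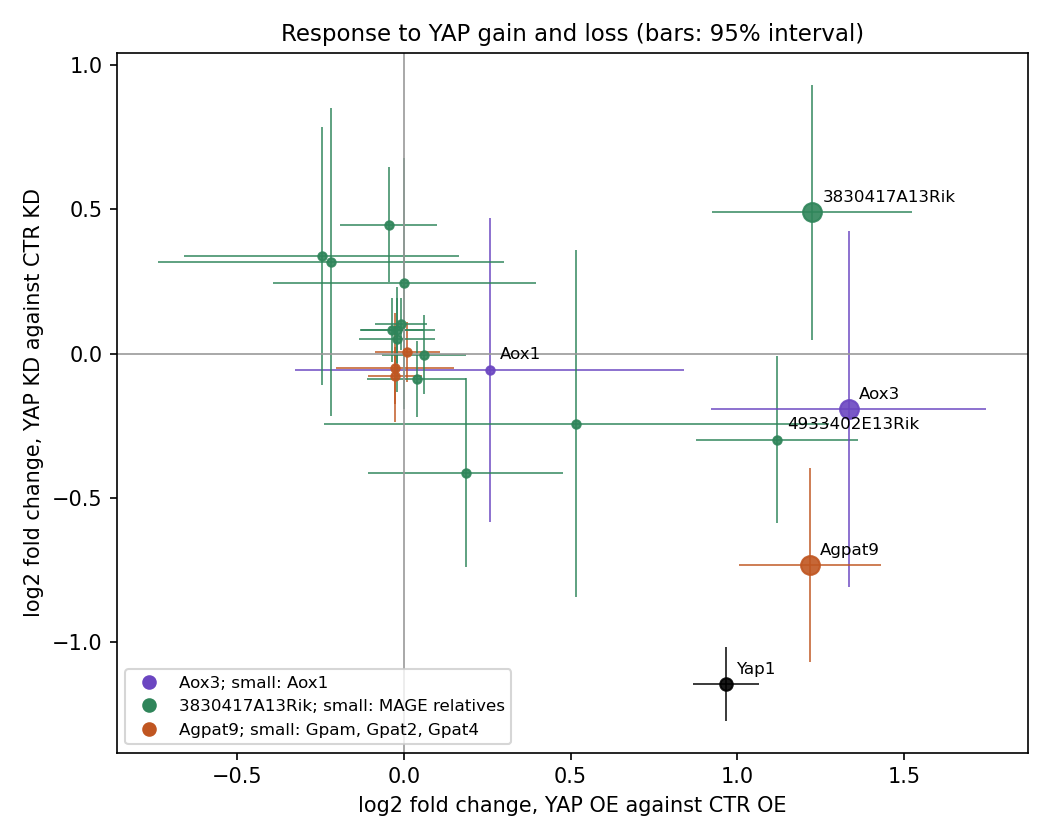
Log2 fold change in YAP OE against CTR OE (x axis) and in YAP KD against CTR KD (y axis) with 95% intervals, for the 3 genes (large points), Yap1 (black) and tested relatives of each gene by sequence (small points). Agpat9 lies at 1.22 and -0.73, Yap1 at 0.97 and -1.14, 3830417A13Rik at 1.22 and 0.49, and Aox3 at 1.33 and -0.19.

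The 3 genes also differed in their control levels. Agpat9 averaged 2.44 ± 0.407 CPM in CTR KD and 2.69 ± 0.328 in CTR OE. 3830417A13Rik averaged 0.699 ± 0.142 CPM in CTR KD and 1.40 ± 0.301 in CTR OE. Aox3 averaged 0.546 ± 0.162 and 0.891 ± 0.299 CPM. Compared directly, the log2 fold change of CTR OE over CTR KD was 1.01 (SE 0.214, adjusted p = 0.0816, edgeR) for 3830417A13Rik, 0.73 (adjusted p = 0.422) for Aox3 and 0.14 (adjusted p = 0.808) for Agpat9. None was called, where 0.454% of genes were called higher. The control plasmid and the scrambled siRNA were used in separate experiments, so reagent and experiment cannot be told apart.

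All 3 genes were weakly expressed, also after the rise. Per transcript length, Aox3 averaged 0.0667 TPM in CTR KD, 0.0600 in YAP KD, 0.113 in CTR OE and 0.293 in YAP OE. 3830417A13Rik averaged 0.243, 0.343, 0.503 and 1.20 TPM in the same order, and Agpat9 0.470, 0.283, 0.523 and 1.25. In YAP OE, 17.8% of 14804 tested genes had a lower mean TPM than Aox3, 34.3% a lower one than 3830417A13Rik and 34.8% a lower one than Agpat9. The median tested gene there had 3.19 TPM. Aox3 was the lowest of the 3 genes in every library. In YAP OE, Agpat9 and 3830417A13Rik lay within their spread of each other (SD 0.151 and 0.161 TPM). In CTR OE they did as well, at 0.523 ± 0.0551 and 0.503 ± 0.101 TPM. In CTR KD, Agpat9 at 0.41 to 0.57 TPM stood above 3830417A13Rik at 0.19 to 0.30 TPM, and in YAP KD the 2 genes overlapped, at 0.23 to 0.34 and 0.33 to 0.35 TPM.

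The counts behind these levels were small and limit their precision. Summed over 3 libraries, YAP OE held 341 counts of Aox3 (exact Poisson 95% interval 306 to 379), 494 of 3830417A13Rik (451 to 540) and 944 of Agpat9 (885 to 1006). CTR OE held 137, 214 and 411 counts. These intervals cover counting error only. The coefficient of variation between YAP OE libraries was 13.6% for Aox3, 2.86% for 3830417A13Rik and 2.01% for Agpat9. Counting alone gives 9.38%, 7.79% and 5.64%. In CTR OE the variation was 33.5%, 21.4% and 12.2%, against 14.8%, 11.8% and 8.54% from counting. All 3 genes also lay above counting in CTR KD and below it in YAP KD. With 3 libraries per group, such a coefficient is imprecise, and the values below counting are given as a description. All expected counts of the 3 genes were whole numbers in all 12 libraries, as they are when no read is divided between similar genes.

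Among the 223 genes that met the conditions of the choice, the 5 highest log2 fold changes also included Ndufa4l2 (1.77) and Usp17le (1.24). Over all 14804 genes tested in the overexpression, Aox3, 3830417A13Rik and Agpat9 held ranks 21, 30 and 31 by log2 fold change. The genes just below Agpat9 among the 223 were 4933402E13Rik at 1.12 (SE 0.114), A2m at 1.09 and Ly6a at 1.05. In that order the lower edge of the group falls between 1.22 and 1.12. In the knockdown Ndufa4l2 had 2.21 and A2m 0.98, both called (adjusted p = 0.00300 and 0.0463, edgeR). Ly6a had 0.42, Usp17le -0.10 and 4933402E13Rik -0.30 there, none of them called.

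None of the relatives of Aox3 was called in either experiment. Its translated sequence of 1335 residues was 64.7% identical to Aox2, 63.9% to Aox4, 61.2% to Aox1 and 50.6% to xanthine dehydrogenase, encoded by Xdh. Aox1, whose end lies 6725 bases before Aox3, had at most 31 counts in a library. Its log2 fold changes were -0.057 and 0.26 in knockdown and overexpression (adjusted p = 0.933 and 0.771, edgeR). Aox4, which begins 8176 bases after Aox3, had at most 15 counts. It was tested in the overexpression only, with 0.87 (SE 0.331, adjusted p = 0.243, edgeR). Aox2 and Xdh never exceeded 3 counts in a library.

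Aox3 thus made up different shares of the aldehyde oxidase transcripts. Its share per effective length was 44.8 ± 6.83% in CTR KD, 39.9 ± 2.97% in YAP KD, 61.7 ± 2.26% in CTR OE and 75.1 ± 4.86% in YAP OE. Aox1 held 47.0 ± 8.19%, 45.1 ± 0.912%, 28.0 ± 0.955% and 16.3 ± 3.96%. The YAP OE libraries, at 71.6% to 80.7% for Aox3, stood above the CTR OE libraries, at 59.8% to 64.2%. Aox3 was picked for its rise in the overexpression, so this separation is a description that the choice favours. The knockdown groups overlapped, at 37.0% to 42.9% in YAP KD and 37.0% to 50.02% in CTR KD.

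Agpat9 remained a minor part of its own enzyme family. The 4 mouse genes for this acylation step are Gpam and Gpat2, whose enzymes sit on mitochondria, and Gpat4 and Agpat9, whose enzymes sit in the endoplasmic reticulum. Agpat9 contributed 3.71 ± 0.605% of the family per effective length in CTR KD, 2.33 ± 0.175% in YAP KD, 4.06 ± 0.474% in CTR OE and 9.06 ± 0.305% in YAP OE. The groups of neither experiment overlapped in this share. Agpat9 was picked for its rise in the overexpression, so the separation there is a description that the choice favours. For the levels of single genes, 25.8% of those tested had no overlap between the knockdown groups. Gpat4, at 70% identity over 420 residues the closest protein to Agpat9, held 52.5% to 55.8% of the family on group average, Gpam 28.2% to 31.7% and Gpat2 10.2% to 11.02%.

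None of the other acyltransferases of this step was called. Gpat4 had log2 fold changes of -0.078 (SE 0.0441) in the knockdown and -0.027 (SE 0.0384) in the overexpression (adjusted p = 0.381 and 0.841, edgeR). Gpam had 0.0044 and 0.010, and Gpat2 had -0.048 and -0.026.

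**Figure D3:**
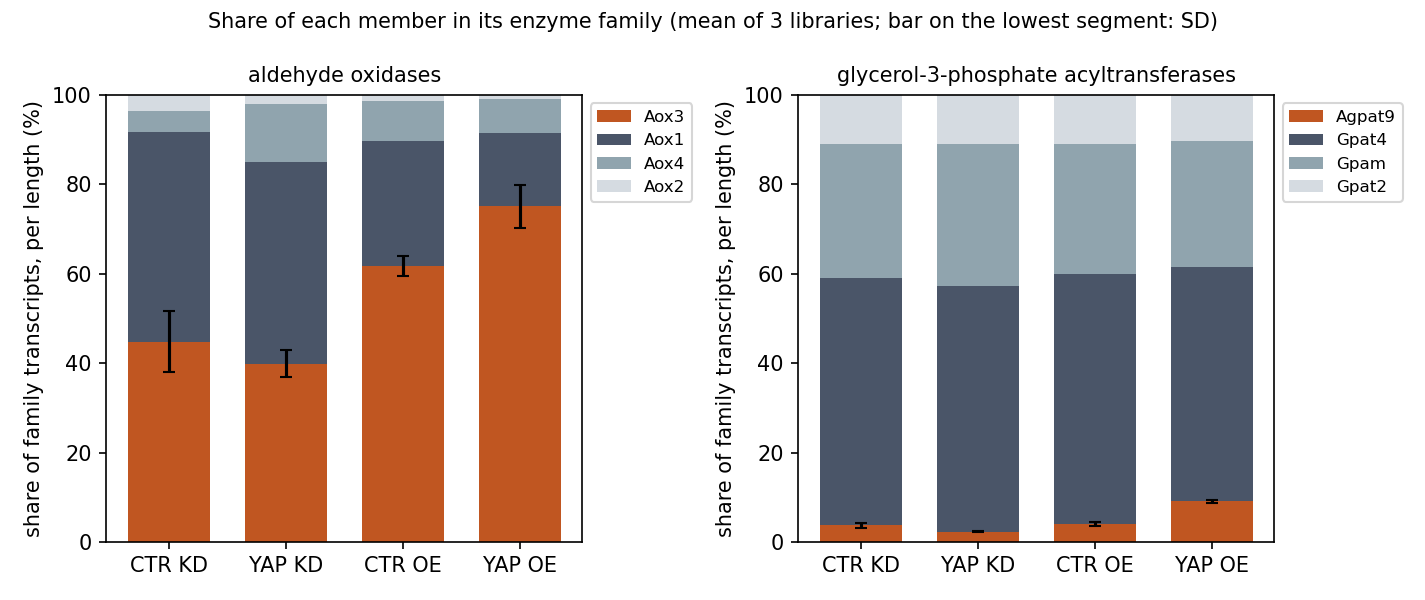
Share of each gene in the transcripts of its enzyme family per effective length, in percent, as the mean of 3 libraries per group, with the SD on the lowest segment. Aox3 rises from 61.7% in CTR OE to 75.1% in YAP OE, and Agpat9 from 4.06% to 9.06%.

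3830417A13Rik had 32 relatives by translated sequence, the Magea, Mageb, Maged and Magee genes among them, and 30 of them were in the tables. The closest to its 303 residues by alignment score were Magea8, 1700080O16Rik, Magea4, Magea5 and Magea2. Their identity was 47.2% to 51.2% over 260 to 309 aligned positions, gaps included. None of the 5 exceeded 6 counts in a library. In all, 17 of the 30 stayed under 10 counts in every library and 7 of these had none. The 13 tested relatives had median log2 fold changes of 0.080 (YAP KD) and -0.0092 (YAP OE), against 0.0058 and -0.0025 over all genes tested. In the knockdown 1 was called higher, Ndn, an imprinted gene best known from neurons, at 0.45 (SE 0.0886, adjusted p = 0.0198, edgeR). No relative was called lower in the knockdown by edgeR, DESeq2 or limma-voom, though 2 had an unadjusted p under 0.05.

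One MAGE relative moved with 3830417A13Rik in the overexpression, where 1.66% of 14804 genes were called higher and 0.473% lower. It was 4933402E13Rik, the gene just below the 3 members in the order of fold changes among those that met the conditions of the choice. It lies on the X chromosome from 62282960 to 62292084 and its translated sequence is 44.7% identical to that of 3830417A13Rik over 208 aligned residues. It had 2.63, 2.45 and 2.98 CPM in CTR OE and 5.02, 6.11 and 6.38 in YAP OE. In the knockdown it had 2.93, 2.72 and 2.76 CPM in CTR KD and 1.85, 2.50 and 2.44 in YAP KD, the opposite side to 3830417A13Rik. Its knockdown log2 fold change of -0.30 (SE 0.130) was not called (adjusted p = 0.241, edgeR). Its counts, too, were whole in all 12 libraries. The well expressed members of the family stood near 0 in both experiments: Maged1, at 125 CPM in CTR KD, had 0.10 and -0.0092, and Mageb16 had 0.080 and -0.021.

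The genes next to each member were not called. Of the 5 annotated genes on each side, 6 of 10 around Aox3 were in the tables and 4 were tested in both experiments. Around 3830417A13Rik 2 were in the tables and 1 was tested, Slitrk4, with log2 fold changes of 0.073 and 0.15. Around Agpat9 all 3 in the tables were tested, and Fam175a, now Abraxas1, had -0.077 and -0.019. Over these neighbours edgeR, DESeq2 and limma-voom called 0, while 1 neighbour of Agpat9 in the knockdown and 1 of Aox3 in the overexpression had an unadjusted p under 0.05. Fam175a ends at position 100845864, inside the annotated span of Agpat9, and whether counting used strand is not stated in the sources used here. It was called in neither experiment. Annotated lncRNA genes inside the spans of Aox3 and Agpat9 were not analysed here.

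The wider pathways of the 2 enzymes were read against the share of all genes called, 2.71% higher and 2.78% lower in the knockdown and 1.66% higher and 0.473% lower in the overexpression. Among aldehyde oxidase, molybdenum cofactor and other molybdenum enzyme genes, edgeR, DESeq2 and limma-voom called 0 of 8 tested in the knockdown and 0 of 9 in the overexpression, and 1 and 2 had an unadjusted p under 0.05. Mocos, the sulfurase that activates the cofactor of aldehyde oxidases, had -0.41 in the knockdown with an adjusted p of 0.0523 (edgeR). The list's median log2 fold change was -0.047 with YAP KD and 0.078 with YAP OE, against 0.0058 and -0.0025 over all genes tested.

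In retinoid metabolism and signalling, 3 of 19 tested genes were called higher in the knockdown and 1 lower. Crabp2, which carries retinoic acid in the cell, rose by 0.66 on the log2 scale, the receptor Rarg by 0.20 and the receptor Rxrg by 0.74. Rdh11, a retinol dehydrogenase, fell by 0.23. These 4 calls depended on the fit: 2 were made with DESeq2, 1 with the replicate block, 0 on either TPM scale and 1 without any single library other than CTR KD replicate 2. In the overexpression 0 of 19 were called by edgeR, DESeq2 or limma-voom, and 3 had an unadjusted p under 0.05. Aldh1a2, a main retinaldehyde dehydrogenase of the embryo, had -0.34 with YAP KD and -0.051 with YAP OE and was called in neither. The medians of this list were -0.035 and -0.045.

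In glycerolipid synthesis, 1 of 21 tested genes was called in each experiment, a single gene that cannot be set apart from the share of all genes. Lpin1, the phosphatidate phosphatase lipin, fell by 0.25 on the log2 scale in the knockdown (adjusted p = 0.0304, edgeR). Lclat1, an acyltransferase for cardiolipin and phosphatidylinositol, rose by 0.39 in the overexpression. On either TPM scale 0 genes of the list were called. When 1 library was left out, a call remained in the knockdown only without CTR KD replicate 2, and in the overexpression only without CTR OE replicate 2 or YAP OE replicate 1. Dgat1 and Dgat2, which complete triacylglycerol, were called in neither experiment, and Dgat2 had 0.30 in the overexpression. The list's medians were -0.048 and -0.012.

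Of the lipid droplet proteins and lipases, 1 of 14 tested genes was called in the knockdown and 1 of 15 in the overexpression, both higher. Plin2, the droplet coat protein present in most cells, rose by 0.30 in the overexpression, from 32.7 to 40.2 CPM. Pnpla3, a droplet lipase, rose by 0.34 in the knockdown (adjusted p = 0.0489, edgeR), a call that was lost with DESeq2 and without any 1 library. The medians of this list were 0.0097 and 0.082.

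**Figure D4:**
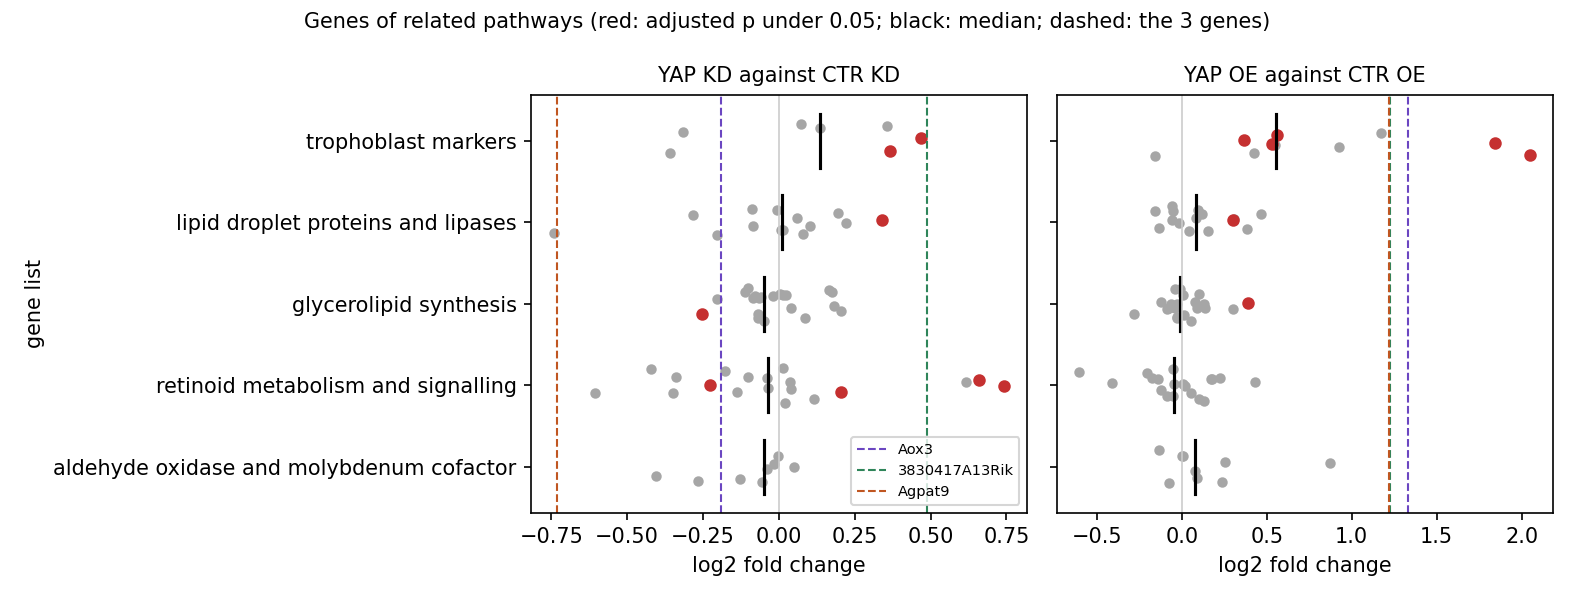
Log2 fold changes of the tested genes of 5 lists in YAP KD against CTR KD (left) and YAP OE against CTR OE (right), with red points for adjusted p under 0.05, black bars for list medians and dashed lines at the values of the 3 genes. Most genes of the 4 metabolic lists lie near 0 in both panels. The trophoblast markers have a median of 0.56 over the 10 of 14 that passed the filter in the overexpression, a value the filter favours.

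Some markers of another lineage were also higher in the overexpression. Of 14 trophoblast markers, 10 were tested in the overexpression and 5 were called higher, Ascl2, Cdx2, Gata3, Krt18 and Krt8, where 1.66% of all genes were called higher. Cdx2, Gata3 and Hand1 did not pass the filter on low counts in the knockdown. In CTR OE, Cdx2 at 0.149 CPM and Hand1 at 0.165 were too low to pass it alone. They passed it in the overexpression only with the YAP OE libraries, where they were higher. Gata3 may have done the same. Hand1 had 0.377 CPM in YAP OE. This filter favours the count of 5 of 10 and the list median, so neither is read against the share of all genes. Tfap2c, at 53.4 CPM in CTR OE and 47.7 in YAP OE, had a log2 fold change of -0.16 (95% interval -0.26 to -0.064) and was not called. The summed level of the 14 markers was 155 to 168 CPM in CTR OE and 177 to 211 CPM in YAP OE. The defining factors stayed low, with Cdx2 at 0.149 CPM in CTR OE and 0.628 in YAP OE and Gata3 at 0.285 and 1.04. No trophoblast marker was at 0 throughout a group, and 7 of 14 stayed under 1 CPM in every library. In the knockdown the summed level was 119 to 132 CPM in CTR KD and 158 to 167 CPM in YAP KD, and 2 of 7 tested markers were called higher, Krt8 and Tfap2c. Tfap2c alone held 57.5 CPM in CTR KD and 79.5 in YAP KD, and Krt8 34.4 and 44.3. Of the 7, 5 had a positive log2 fold change, while Eomes and Ascl2 had -0.32 and -0.36 and were not called. 2 of 9 tested primitive endoderm markers, Dab2 and Sparc, were also called higher in the overexpression, with sums of 160 to 169 CPM in CTR OE and 179 to 182 CPM in YAP OE. In the knockdown their sums were 150 to 172 CPM in CTR KD and 137 to 154 CPM in YAP KD. Lama1 and Sparc made up most of these sums, at 99.2 and 56.9 CPM in CTR OE and 104 and 67.9 in YAP OE. In the overexpression 6 of the 9 primitive endoderm markers had a positive log2 fold change. Gata4, Sox17 and Sox7 had -0.26, -0.013 and -0.046 there, so the markers did not rise as a set. The part of these cell type markers in the values of the 3 genes was not tested.

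The pluripotent cell markers were not called in either experiment by edgeR, DESeq2 or limma-voom, although 3 of 6 in the knockdown and 1 of 6 in the overexpression had an unadjusted p under 0.05. Primitive endoderm markers in the knockdown were 0 of 8 by the same tools, with 2 under the unadjusted threshold. Of 4 tested fibroblast markers 0 were called in either experiment by these tools, with 2 and 0 under it. The summed level of all 7 was 1.88 to 2.22 CPM in CTR KD and 2.44 to 3.18 in YAP KD, without overlap, and 2.49 to 3.11 in CTR OE and 2.72 to 2.90 in YAP OE. For single genes, 25.8% of those tested had no overlap between the knockdown groups. Col1a1 and Col1a2, fibrillar collagens, had log2 fold changes of 1.10 and 0.73 in the knockdown (adjusted p = 0.158 and 0.122, edgeR). Col3a1, also a fibrillar collagen, had -0.21 and Thy1 had 0.10. The part of these markers in the knockdown values of the 3 genes was not tested.

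Genes whose profile over the 12 libraries lay nearest to that of each member were found by the root mean square (RMS) difference in log2 level, after the control mean of each experiment had been subtracted. This likeness uses the values of both experiments, so the fold changes of the genes it names are a description, with no test. Nearest to Agpat9 were Htra1, Hecw2, 4933402E13Rik, Yap1 and Ddah1, with RMS differences of 0.26 to 0.30 against a median of 0.72 over 12267 genes. Htra1, a secreted protease, Hecw2, a ubiquitin ligase, and Ddah1, which breaks down methylated arginine, had knockdown log2 fold changes of -0.61, -0.70 and -0.53. Nearest to Aox3 were 4933402E13Rik, Arhgdib, Tinagl1, Agpat9 and Cyr61, at 0.37 to 0.41. Apart from Agpat9, their knockdown values ran from -0.30 to 0.0085. Nearest to 3830417A13Rik were Anxa2, Ly6a, Igf2, Ptges and Cyr61, at 0.25 to 0.36. Anxa2, a membrane-binding annexin, had 0.42 in the knockdown and 0.86 in the overexpression. Ly6a and Igf2, a surface antigen and an imprinted growth factor, had 0.42 and 0.45 in the knockdown.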

How the data were processed

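RNA-Seq of 12 libraries was used, 3 in each of 4 groups. The authors mapped reads to mm10 with STAR and quantified curated RefSeq genes with RSEM; versions and strand setting are not given in the sources used here. The deposited expected counts are unnormalized estimates, and the deposited TPM values are scaled per effective length. The deposited FPKM values were not used.

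Expected counts were rounded. Each experiment (6 libraries) was fitted with edgeR 4.0.16 in R 4.3.3 (filterByExpr, TMM, two-sided quasi-likelihood F test, Benjamini-Hochberg adjustment over all genes kept). SE was the absolute log2 fold change divided by the square root of F. The script was tested on simulated counts. Counts of replicates were further apart than sampling allows (a chi-square of 3.39 to 24.2 for each degree of freedom). DESeq2 1.42.0 and limma 3.58.1 served as alternatives. P-values cover the spread between these libraries.

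The members and gene lists were chosen with earlier results of these data known. The text names Yap1, the members, genes of the lists, the genes next to the members by fold change, annotation (5 on each side), protein similarity and profile, and, chosen after their values were seen, further MAGE relatives. The comparison of the control groups was also added then. Coordinates and promoter windows come from RefSeq tables on GRCm38.p6; all 3 members matched. Identities come from blastp 2.17.0 on translated GENCODE coding transcripts. The likeness of profiles was computed over genes whose mean expected count reached 50 in each experiment.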

Additional observations from a re-analysis of the deposited data

How the results depend on the processing

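No value of the 3 genes changed sign under 9 processing alternatives or when 1 library was left out. The knockdown call of Agpat9 was lost with the replicate number as a block (-0.72, adjusted p = 0.102, edgeR), with limma on log2(TPM + 0.1) (-0.57, adjusted p = 0.184) and with limma after a pseudocount of 1 TPM (-0.20, adjusted p = 0.103). Leaving out 1 library gave -0.83 to -0.60 and kept the call in 3 of 6 fits. Neither 3830417A13Rik (0.35 to 0.65) nor Aox3 (-0.44 to -0.043) was called in the knockdown when 1 library was left out, nor under any of the 9 alternatives. In the overexpression, log2(TPM + 0.1) gave 0.88 for Aox3, and log2(TPM + 1) gave 0.22 for Aox3, 0.55 for 3830417A13Rik and 0.56 for Agpat9; a pseudocount near or above the level of a gene shrinks its fold change by construction. Leaving out 1 library gave 1.18 to 1.64 for Aox3, 1.08 to 1.39 for 3830417A13Rik and 1.13 to 1.31 for Agpat9.

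Genes called in YAP KD numbered 802, against 1261 in 1 fit over 12 libraries, 193 with the replicate block, 47 on log2(TPM + 0.1), 74 on log2(TPM + 1) and 298 to 1019 without 1 library. Genes called in YAP OE numbered 316, against 556 without a filter beyond 1 count, 68 and 87 on the TPM scales and 154 to 327 without 1 library. The causes were not tested. Counts of list genes called stayed within 1.5 times the original in 213 comparisons with an alternative and moved further in 57. The 213 include comparisons where both counts were 0, which say little about stability. Replicate numbers gave no clear sign of pairing. Across genes, deviations of same-numbered libraries correlated at -0.29, -0.14 and -0.0084 in the knockdown and at 0.018, 0.047 and 0.023 in the overexpression. Libraries of different number had -0.14 to 0.26 in the knockdown and -0.044 to 0.022 in the overexpression. With 3 libraries per group these correlations depend on each other, so the check cannot settle whether the libraries were paired. Low counts limit Aox3 most.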
